A study of Rattus norvegicus with 22 samples.

Results

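Messenger RNA of 10 immune checkpoint and costimulation genes was compared between oral squamous cell carcinoma (OSCC) and adjacent, phenotypically normal tongue tissue of 11 male F344 rats. The genes are Cd274, Pdcd1lg2, Pdcd1, Cd80, Cd86, Ctla4, Lag3, Havcr2, Foxp3 and Ido1. They were found by their symbols in the annotation of the scanner files, where all 10 of them were present among 19167 gene symbols, and each was read from its brightest probe over the 22 arrays. All 11 rats had drunk water with 20 ppm 4-nitroquinoline-1-oxide (4-NQO), a DNA-damaging carcinogen, over 10 weeks, and tissue was taken at weeks 23 to 26, when the rats were labelled as 33 weeks old. Each rat contributed 1 OSCC and 1 normal piece. The normal pieces thus came from exposed tongues, and no rat without 4-NQO was on the arrays. In the sample titles all 22 arrays are called untreated, and normal pieces are labelled with no treatment, but the deposited protocol and the study's methods describe both pieces as taken from the same exposed rats, which is followed here.

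T cells are activated when their antigen receptor is engaged together with CD28, which binds CD80 or CD86 on antigen-presenting cells. CTLA-4 competes for CD80 and CD86 and lowers that signal, and PD-1, the product of Pdcd1, lowers T cell activity after it binds PD-L1 (Cd274) or PD-L2 (Pdcd1lg2). LAG-3 and TIM-3 (Havcr2) are further inhibitory receptors, FOXP3 is the defining transcription factor of regulatory T cells, and IDO1 breaks down tryptophan, on which T cells depend. In oral carcinomas PD-L1 is carried by tumor cells and by macrophages.

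Each array measured 30367 probes. A log2 expression of 0 is the array's own 75th percentile of signal, so a level is a level on that array and probes of different genes are not compared by level. The software's flag for signals well above background marks which values were taken as measured. From here on, above background means that this flag was set. Below background means only that it was not set, and such a signal could still exceed the local background. A call of higher or lower needed 2 things, a limma adjusted p below 0.05 and means at least 2-fold apart. The array's 75th percentile was 236.8 to 654.9 signal units in normal tissue and 338.7 to 1414 in OSCC. The normal pieces lay on 3 slides and the OSCC on 4 others, and only rats 4 and 9 had both pieces scanned on 1 day, so slide and tissue cannot be told apart. Skeletal muscle Acta1 and keratinocyte Krt5 were well above background on all 22 arrays. In pieces of whole tissue, fewer cells of a type and less RNA per cell cannot be told apart.

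The probes decide what could be seen, and those of both ligand pairs are printed because 1 ligand of each pair was measured and the other was not. Each is 60 bases long, is given 5′ to 3′ in lower case as the scanner files hold it, and has its rn4 position from the array annotation.
Cd274, chr1:233061619-233061678, + strand: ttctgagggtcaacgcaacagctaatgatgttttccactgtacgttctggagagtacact
Pdcd1lg2, chr1:233138865-233138924, + strand: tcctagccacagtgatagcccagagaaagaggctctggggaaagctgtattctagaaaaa
Cd86, chr11:66228898-66228957, - strand: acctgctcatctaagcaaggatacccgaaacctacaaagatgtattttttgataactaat
Cd80, chr11:64045405-64045464, - strand: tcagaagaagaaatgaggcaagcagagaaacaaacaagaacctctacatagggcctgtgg
The array annotation places the Cd86 probe on the - strand in rn4, whereas RefSeq lists the gene on the + strand in GRCr8, and the builds were not compared. Each of these 4 probes has 1 reading frame with no stop codon. The Cd274 and Pdcd1lg2 probes begin 77.2 kb apart on chromosome 1. G and C made up 45.0% of the Cd274 and Cd80 probes, 46.7% of the Pdcd1lg2 probe and 35.0% of the Cd86 probe, beside a median of 45.0% over all probes.

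Of the 10 genes, 5 were higher in OSCC (Cd86, Cd274, Lag3, Ctla4 and Pdcd1), 0 were lower, and 5 were not called. Over all probes 6.86% were called higher and 6.97% lower. Calls rest on fitted means, and of the 5 higher genes Cd86, Ctla4 and Pdcd1 were above background in 0 normal pieces and Lag3 in 3. For Pdcd1 the fold limit given below was only 1.16, and for Ctla4 there was none above 1, so 2-fold was not measured for them. The 5 genes without a call were Havcr2, Foxp3, Pdcd1lg2, Ido1 and Cd80, and the last 3 of these were well above background on 0 of 22 arrays, like 27.6% of all probes. At an unadjusted p below 0.05 in limma or in the methods' t-test, 1 gene (Cd80) was lower, by less than 2-fold. The median log2 difference of the 10 genes was 0.93, against -0.24 over all probes. The ranges of both tissues overlapped for all 10 genes, and over all probes 0.667% had OSCC values entirely above normal ones.

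**Figure D1:**
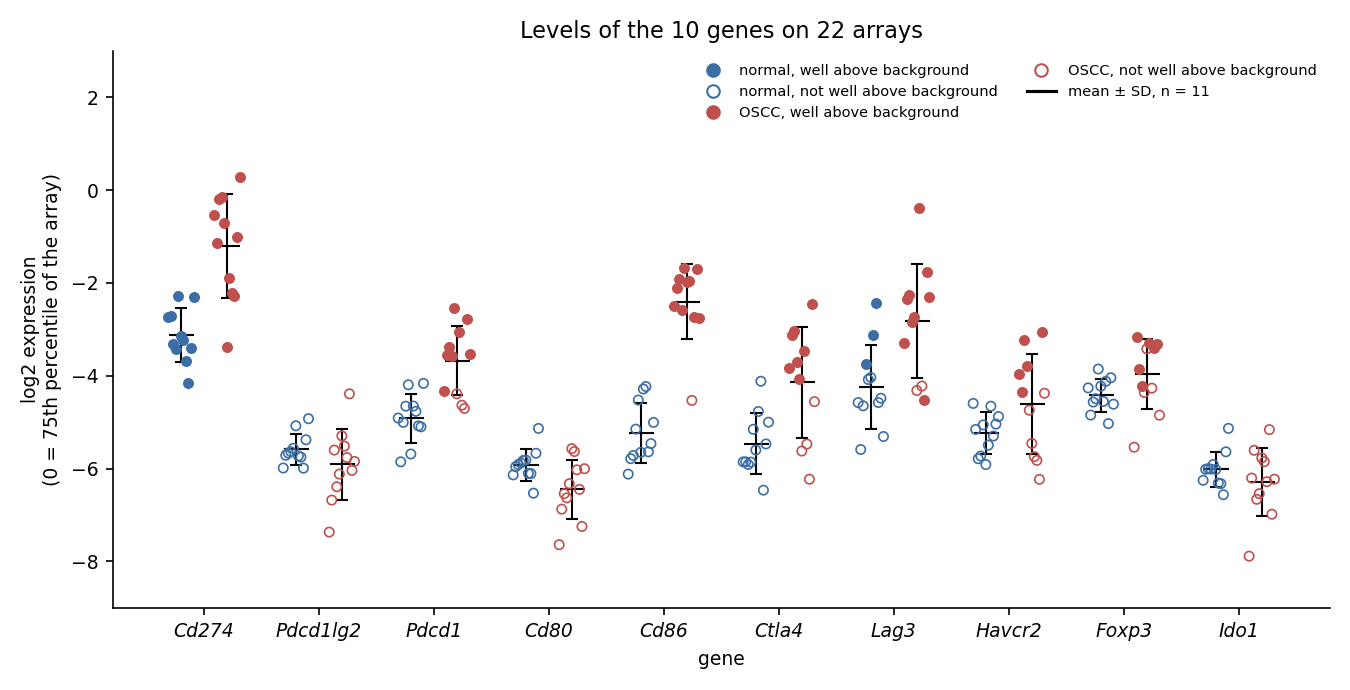
Log2 expression of each gene (horizontal axis) on each array, with 0 at the array's 75th percentile, in normal tissue (blue) and OSCC (red) of 11 rats. Filled points were well above background and open points were not, and bars are means ± SD. Cd86 has 0 filled points in normal tissue and 10 in OSCC, whereas Pdcd1lg2, Cd80 and Ido1 have open points only. Heights of different genes are not comparable.

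Cd274, the gene of PD-L1, was the only one of the 10 that was well above background on all 22 arrays. Its log2 expression in normal tissue was between -4.16 and -2.28 with a median of -3.24, and in OSCC it was between -3.37 and 0.29 with a median of -1.01. The OSCC of 9 rats lay above the highest normal piece, and rat 17 had the lowest OSCC value. Normal tissue had a mean of -3.13 ± 0.58 and OSCC one of -1.20 ± 1.12 (SD, n = 11). Cd274 thus rose 3.79-fold, with a log2 difference of 1.92 ± 0.27 (SE, limma adjusted p = 0.000454), and it was higher in the OSCC of 10 of 11 rats. The exception was rat 17, with a log2 difference of -0.23, and the largest difference was 3.27 in rat 13. In the rats whose pieces were scanned on 1 day the difference was 2.20 (rat 4) and 1.57 (rat 9).

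Pdcd1lg2 encodes PD-L2, the other ligand of PD-1. It was above background on 0 arrays, and on 17 of 22 arrays the software had replaced its signal by a surrogate value. Log2 values were -5.99 to -4.93 with a median of -5.67 in normal tissue and -7.37 to -4.39 with a median of -5.85 in OSCC. The log2 difference was -0.33 ± 0.23 (SE, limma adjusted p = 0.250). It is no measured change because neither tissue had a signal flagged as well above background.

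Pdcd1, the gene of the receptor PD-1, was above background in 0 normal pieces and in 8 of 11 OSCC. Over all probes 11% were above background in 0 normal pieces and in at least 1 OSCC. Log2 expression was -5.85 to -4.16 with a median of -4.91 in normal tissue and -4.70 to -2.53 with a median of -3.54 in OSCC. The OSCC of 7 rats exceeded the highest normal piece, and the 3 OSCC below background were those of rats 17, 22 and 24. The fitted log2 difference was 1.24 ± 0.21 (SE, limma adjusted p = 0.00121). Pdcd1 was the only gene of the 10 that was higher in OSCC in all 11 rats, as 4.62% of all probes were, although in rats 17, 22 and 24 both pieces were below background, so that the direction there is not measured, and in rat 22 the log2 difference was only 0.13. Because no normal piece gave a measured level, the fold is a limit, at least 1.16-fold higher. It was taken against a detection floor on each normal array, which was the dimmest signal flagged as well above background there, or the gene's own signal where that was higher.

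Cd86, a ligand of both CD28 and CTLA-4, was above background in 0 normal pieces and in 10 of 11 OSCC. Log2 expression was -6.12 to -4.23 with a median of -5.46 in normal tissue and -4.53 to -1.69 with a median of -2.12 in OSCC. The OSCC of 10 rats lay above every normal piece, and rat 22 was the exception, with -4.53 in OSCC and -4.23 in normal tissue. The fitted log2 difference was 2.83 ± 0.33 (SE, limma adjusted p = 0.000201), and against the limit of the normal arrays Cd86 was at least 2.81-fold higher. Rats 4 and 9, scanned on 1 day, had differences of 3.62 and 3.67.

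Cd80, the second ligand of CD28 and CTLA-4, was above background on 0 arrays and had a surrogate signal on all 22. Its values were -6.53 to -5.14 with a median of -5.91 in normal tissue and -7.64 to -5.57 with a median of -6.45 in OSCC. The log2 difference was -0.53 ± 0.20 (SE, limma adjusted p = 0.0470), which is under 2-fold and is no measured fall of the transcript.

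Ctla4, the inhibitory receptor for CD80 and CD86, has 2 probes. The brighter one was above background in 0 normal pieces and 7 of 11 OSCC, with log2 expression of -6.47 to -4.12 (median -5.60) in normal tissue and -6.23 to -2.46 (median -3.84) in OSCC. The other gave -6.02 to -4.76 (median -5.55) and -6.08 to -2.87 (median -4.33), and was above background in 0 and 5 pieces. The log2 difference was 1.32 ± 0.38 (SE, limma adjusted p = 0.0185) by the brighter probe and 1.15 ± 0.35 (limma adjusted p = 0.0240) by the other, and each was higher in 9 of 11 rats. In rats 17, 22, 24 and 26 both pieces were below background by either probe, and in rats 16 and 21 by the second probe. Directions there are not measured. Both probes had their lowest difference in rat 22 and their highest in rat 25. No fold limit above 1 could be given for either probe. The second probe is printed because its call rests on other bases than the first:
Ctla4, chr9:59501148-59501207, + strand: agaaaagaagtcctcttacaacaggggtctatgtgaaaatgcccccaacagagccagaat

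Lag3, an inhibitory receptor that binds MHC class II, was above background in 3 normal pieces and 9 OSCC. Its log2 expression was -5.59 to -2.42 with a median of -4.48 in normal tissue and -4.51 to -0.38 with a median of -2.73 in OSCC, and only 5 OSCC exceeded the highest normal piece. The fitted log2 difference was 1.42 ± 0.44 (SE, limma adjusted p = 0.0235), with higher values in the OSCC of 9 of 11 rats, and it includes 8 normal pieces below background. The differences ran from -1.80 in rat 22 to 3.23 in rat 9. Its adjusted p was the highest of the 5 calls, and the call was lost without rat 9, 11, 25 or 26 (limma adjusted p = 0.0554, 0.0517, 0.0532 and 0.0542).

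Havcr2, the gene of TIM-3, a receptor of T cells and of myeloid cells, was above background in 0 normal pieces and 5 OSCC. Its log2 values were -5.91 to -4.60 (median -5.16) in normal tissue and -6.23 to -3.05 (median -4.38) in OSCC. The OSCC of 6 rats exceeded the highest normal piece, while the lowest OSCC value was below all normal ones. The log2 difference was 0.62 ± 0.33 (SE, limma adjusted p = 0.130), with values from -1.17 in rat 22 to 2.55 in rat 11. The 3 rats with lower values, 21, 22 and 24, had both pieces below background, so no fall was measured. Without rats 21, 22 and 24, which the study's text names as variable, the difference was 1.15 (limma adjusted p = 0.00586) and Havcr2 was called higher, as were 8.69% of all probes.

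Foxp3 was above background in 0 normal pieces and 6 OSCC. Its log2 values were -5.03 to -3.86 (median -4.50) in normal tissue and -5.54 to -3.16 (median -3.86) in OSCC, and 5 OSCC exceeded every normal piece. The log2 difference of 0.45 ± 0.26 did not pass (SE, limma adjusted p = 0.168), with 7 rats higher and 4 lower. The rats that were scanned on 1 day lay at both ends, with -1.28 in rat 4, the lowest of all, and 1.69 in rat 9, the highest. In rat 4, as in the other rats with lower values (16, 22 and 26), neither piece was flagged as well above background. A fall there is thus not taken as measured, although Foxp3 had a surrogate signal on 0 arrays.

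Ido1 was above background on 0 arrays and had a surrogate signal on 18. Values were -6.56 to -5.13 (median -6.02) in normal tissue and -7.89 to -5.16 (median -6.23) in OSCC, and the log2 difference was -0.27 ± 0.25 (SE, limma adjusted p = 0.383), which became 0.11 under quantile normalization. Its probe is printed because it gave no measured level on any of the arrays:
Ido1, chr16:71878309-71878368, + strand: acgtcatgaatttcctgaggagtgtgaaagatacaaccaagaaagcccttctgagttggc

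The 8367 probes that were above background on 0 arrays show how such values behaved. Their median log2 difference was -0.55, 97.0% of them were lower in OSCC, and 40.5% had a limma adjusted p below 0.05. Within a rat their median ran from -1.62 (rat 25) to 0.41 (rat 21), and it was lowest in rats whose OSCC array was much brighter than the normal one: the log2 ratio of the 75th percentiles was 1.83 in rat 25 and -0.42 in rat 21. Cd80 took nearly the same values as that median, with -1.58 in rat 25, -1.50 in rat 4 and 0.47 in rat 21. Pdcd1lg2 and Ido1 departed from it most in rat 24, where they were 1.60 and 1.40 and the median was 0.06.

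**Figure D2:**
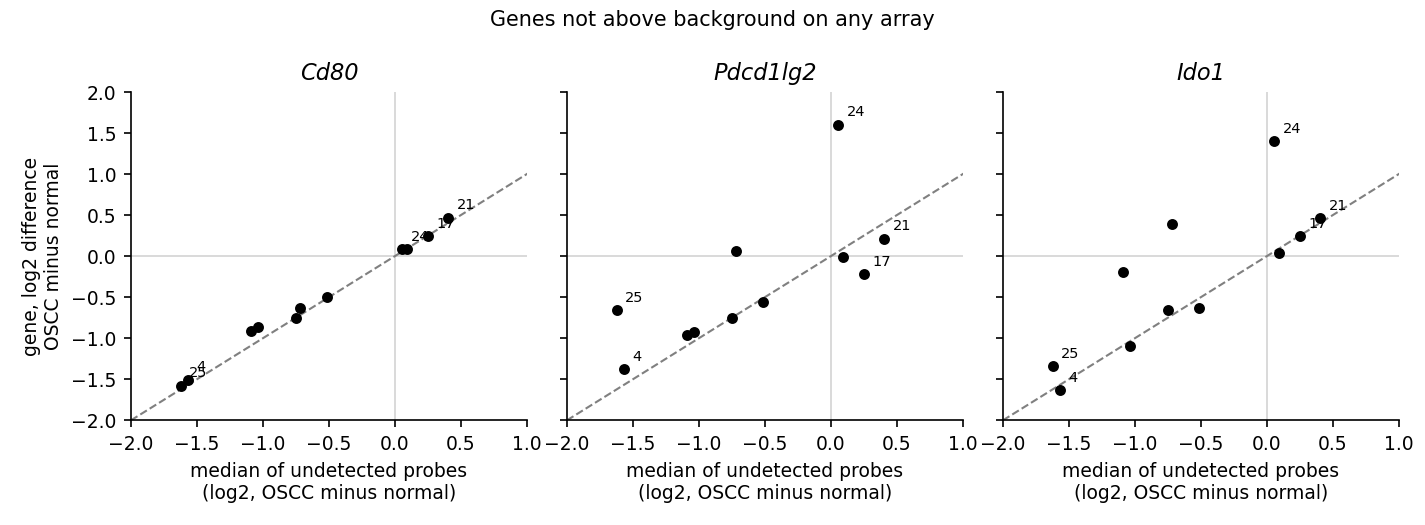
Log2 difference between OSCC and normal tissue of Cd80, Pdcd1lg2 and Ido1 (vertical axes) against the median log2 difference of all probes above background on 0 arrays (horizontal axes). Each point is 1 rat, some with the animal number beside them, and the dashed line marks equal values. Cd80 lies along the line from -1.58 to 0.47, and rat 24 lies above it for Pdcd1lg2 and Ido1.

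The rats differed in how many genes moved. In 9 of 11 rats all 5 called genes were higher in OSCC. Rat 17 had 2 higher (Cd86 and Pdcd1), with a median of -0.02 over the 5 genes, and rat 22 had 2 higher (Cd274 and Pdcd1), with a median of -0.30. Rat 24 had all 5 higher but 2 by at least 2-fold, with a median of 0.38. The highest median was 2.87 in rat 11. Rat 17 had one of the larger differences of Cd86, 3.68, beside -0.23 for Cd274. In rat 22 Cd86 had -0.30, with both pieces below background, beside 1.46 for Cd274. Pdcd1 in rats 17, 22 and 24 and Ctla4 in rats 17, 22, 24 and 26 were likewise below background in both pieces. So was Lag3 in rat 17, and the directions of these genes in these rats are not measured.

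**Figure D3:**
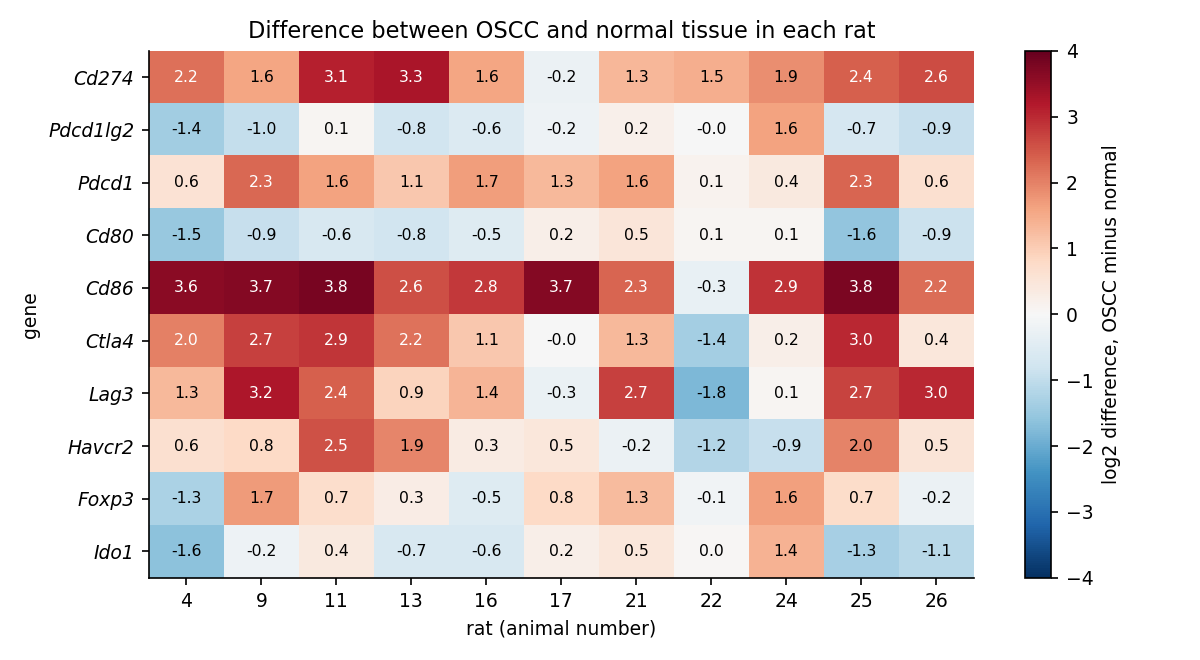
Log2 difference between OSCC and normal tissue for each gene (rows) in each rat (columns), with red for higher and blue for lower in OSCC. Rat 22 is pale or blue for most genes, and Cd86 is above 2 in all other rats.

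Changes of 15 pairs of genes were compared within rats, as differences between log2 changes and not between levels, by an exact two-sided sign-flip permutation test whose smallest possible p is 0.000977. Of these, 6 passed after adjustment over the 15. Cd274 changed by 2.25 ± 0.41 more than Pdcd1lg2 (SE, adjusted exact p = 0.00977, in 10 of 11 rats), and Cd80 by 3.36 less than Cd86, a difference of -3.36 ± 0.49 (adjusted exact p = 0.00977, in 10 of 11 rats). In both pairs the lower gene was never above background. Of the other genes, Cd274 was measured in both tissues, whereas Cd86 had no measured level in normal tissue. Havcr2 changed less than the macrophage gene Cd68, by -1.38 ± 0.28 (adjusted exact p = 0.00977, in 10 of 11 rats), a value that includes the 11 normal pieces and 6 OSCC in which Havcr2 was below background. Cd274 and Cd68 differed by -0.08 ± 0.30 in their changes (adjusted exact p = 0.796), and Cd86 and Cd68 by 0.83 ± 0.39 (adjusted exact p = 0.113, and 0.0391 without rat 26).

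The T cell receptors were compared with Cd3e, a chain of the T cell receptor complex that itself rose by 1.70 ± 0.54 (SE, limma adjusted p = 0.0259) and was above background in 5 normal pieces. Relative to Cd3e the changes were -0.28 ± 0.31 for Lag3, -0.38 ± 0.35 for Ctla4, -0.46 ± 0.45 for Pdcd1 and -1.25 ± 0.61 for Foxp3, and none passed (lowest adjusted exact p = 0.137, for Foxp3). Pdcd1 and Ctla4 differed by -0.08 ± 0.30 (adjusted exact p = 0.796), Foxp3 and Ctla4 by -0.87 ± 0.47 and Lag3 and Havcr2 by 0.80 ± 0.42 (both adjusted exact p = 0.144). Cd80, Ido1 and Pdcd1lg2 changed less than Cd68, by -2.54 ± 0.58, -2.27 ± 0.60 and -2.33 ± 0.57 (adjusted exact p = 0.0146, 0.0269 and 0.0205), again with values at the floor. The Ido1 comparison did not pass without rat 4, 9, 11, 13, 16 or 25 (adjusted exact p = 0.0537 in each case). Cd3e itself lost its call without rat 9, 11, 13, 25 or 26 (limma adjusted p up to 0.0596).

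**Figure D4:**
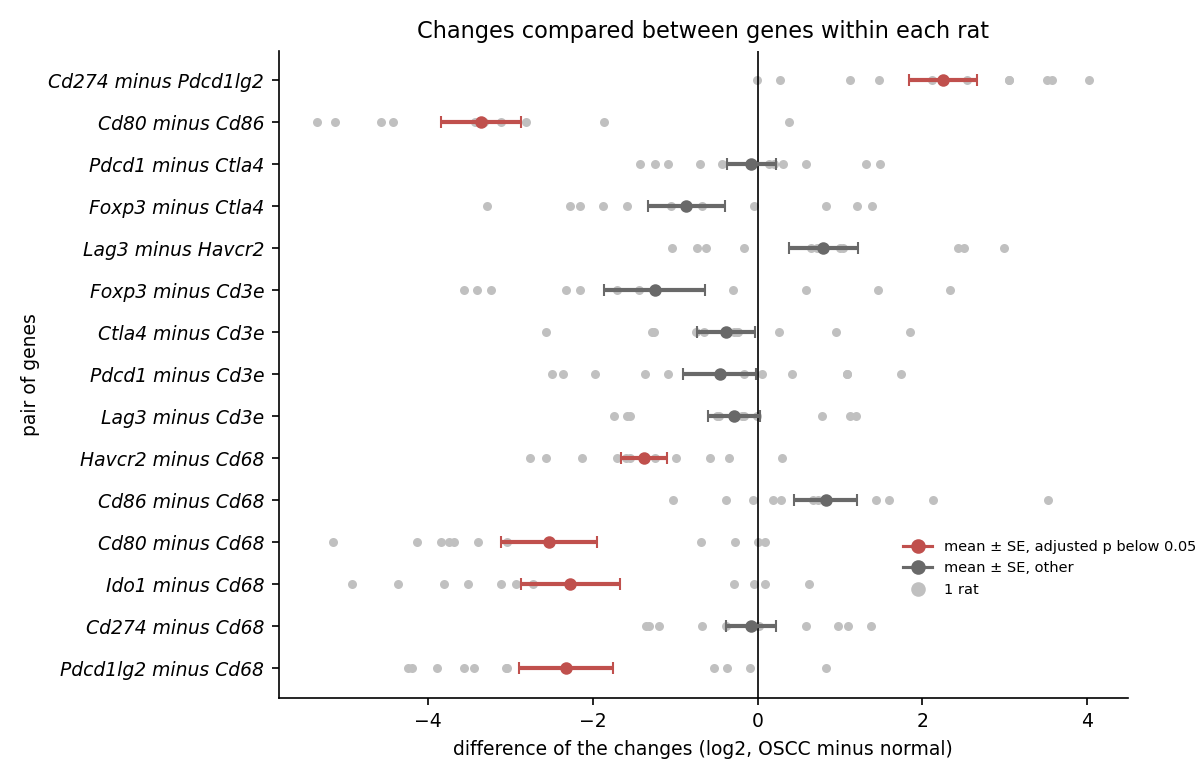
Difference between the log2 changes of 2 genes (horizontal axis) for the 15 pairs compared (rows), with grey points for the 11 rats and bars for the mean ± SE. The 6 pairs in red passed at an adjusted p below 0.05, and all 6 include a gene that was above background on 0 arrays or, for Havcr2, on 5.

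Correlations of changes across rats were computed for 5 pairs of genes. All had a wide gap between rats in at least 1 gene, so they were computed within the larger cluster of 9 or 10 rats. Pdcd1 and Lag3 had the highest, with Pearson's r = 0.53 and Spearman's rho = 0.50 over 10 rats (permutation p = 0.114 and 0.143, adjusted 0.572 and 0.587), and r = 0.34 without rats 4 and 24. Ctla4 and Foxp3 had r = 0.02 and rho = -0.02 over 10 rats (permutation p = 0.948 and 0.974, adjusted 0.948 and 0.974). The other 3 pairs include Cd80, Ido1 or Pdcd1lg2, with r between -0.39 and -0.20 (adjusted permutation p from 0.655 to 0.752). No correlation passed.

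Of 62 further genes of these pathways on the array, 15 were called higher in OSCC and 0 lower. The shares over all probes, 6.86% higher and 6.97% lower, are the background for this count and for each list count below. The lists were not tested as sets. At an unadjusted p below 0.05 in limma, 2 were lower (Lair1 and Tdo2), both never above background. In the B7 and CD28 family 2 of 8 rose. Vsir encodes VISTA, an inhibitory B7 family protein, and has the symbol MGC112715 on the array. It was above background on all 22 arrays and rose 2.52-fold, with a log2 difference of 1.33 ± 0.28 (SE, limma adjusted p = 0.00318), in 10 of 11 rats. Icos, an inducible costimulatory receptor of T cells, rose by 1.69 ± 0.49 (limma adjusted p = 0.0182) and was above background in 4 normal pieces. Cd28 itself was above background in 0 normal pieces and 1 OSCC. Among TNF superfamily genes, 3 of 10 rose. They were Tnfsf9, the ligand of 4-1BB (1.42 ± 0.40), Tnfrsf9, which encodes 4-1BB (1.19 ± 0.39), and Tnfrsf18, which encodes GITR (1.07 ± 0.40). Of 13 genes of other coinhibitory and costimulatory pairs, 4 rose. Ceacam1, reported as a ligand of TIM-3, rose by 3.15 ± 0.38 and was at least 2.82-fold higher, and Cd244 (Cd244l1 in the RefSeq table), a receptor of NK and T cells, rose by 2.29 ± 0.42 and was at least 1.94-fold higher. Cd200r1, an inhibitory receptor of myeloid cells, rose by 1.56 ± 0.37 (at least 1.56-fold), and Pvr, a ligand of TIGIT and CD226, by 1.34 ± 0.27 in 11 of 11 rats. Ceacam1, Cd244 and Cd200r1 were above background in 0 normal pieces. Tigit was not found on the array.

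Of 8 enzymes of tryptophan and adenosine metabolism 2 rose. Kmo, which acts downstream of IDO1, had a fitted rise of 1.46 ± 0.17 (SE, limma adjusted p = 0.000202), with higher values in 11 of 11 rats. It was above background in 0 normal pieces and only 4 OSCC, so in the other rats the direction is not measured. No fold limit above 1 could be given for Kmo. Entpd1, which encodes CD39, rose by 1.03 ± 0.29. Among 6 regulatory T cell genes other than Foxp3, 2 rose: Il10, an inhibitory cytokine, by 2.55 ± 0.50 (at least 1.58-fold), and Il2ra, which encodes CD25 and also marks activated T cells, by 1.47 ± 0.33 with 1 normal piece above background. Ikzf4 was not found on the array. Of 17 interferon-gamma genes only 2 rose, a small count beside the 6.86% of all probes called higher. They were the transcription factor Irf8 (1.54 ± 0.44) and the feedback inhibitor Socs1 (1.22 ± 0.35). Ifng itself was above background on 0 arrays. The median log2 difference of the 6 lists was between 0.19 (tryptophan and adenosine) and 0.62 (B7 and CD28 family), against -0.24 over all probes.

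Of 10 T cell markers 7 rose. Among them, Cd8a rose by 3.11 ± 0.62 with 3 normal pieces above background, and Cd8b was above background in 0 normal pieces and was at least 1.13-fold higher. The mean log2 level of the list was -3.94 to -2.02 in normal tissue and -3.30 to -0.72 in OSCC, higher in 8 of 11 rats. Of 10 macrophage markers 7 rose, including Msr1 (at least 1.28-fold, with 0 normal pieces above background), Fcgr1a (2.19 ± 0.44), Cd14 (2.11 ± 0.34) and Cd68, at 4.01-fold, and the list mean was -1.40 to -0.13 in normal tissue and -0.49 to 1.65 in OSCC, higher in 11 of 11 rats. The pan-leukocyte gene Ptprc rose by 1.50 ± 0.35 and Itgb2 by 2.62 ± 0.47. Of 7 dendritic cell markers on the array 1 rose, Ccr7 by 1.71 ± 0.37, and Itgax was not found. Of 6 NK and cytotoxic markers 0 were called in either direction, and 2 were higher at an unadjusted p below 0.05 in limma.

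Tissue makeup differed beyond leukocytes. All 5 lingual gland markers rose, Vegp1 by 9.69 ± 1.40, with list means of -5.04 to -1.16 in normal tissue and -1.36 to 10.1 in OSCC. Of 6 skeletal muscle markers 3 fell (Ckm, Tnni2 and Tnnt3), with list means of 5.56 to 7.04 and 2.26 to 8.27. The other 3 were not called: Acta1 had -1.09 and Myh1 -0.74, but Actn3 had 1.80 and was higher in OSCC in 8 rats. The mean of the muscle list was higher in OSCC in 3 rats, by 2.18 in rat 21, 1.27 in rat 22 and 1.85 in rat 24. These are the rats that were left out together in 1 setting. The part of these differences in the changes of the 10 genes was not tested.

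The processing mattered most for the dim genes. With normexp background correction, which here added 50 signal units to each signal, 1 of the 5 calls was left. It was Cd274, at 1.22 (limma adjusted p = 0.00163), and over all probes 2.26% were called higher. The added units by themselves lower the log2 differences of dim probes, and their share in the lost calls was not tested. Cd86 then had 0.76, Lag3 0.54, Ctla4 0.33 and Pdcd1 0.30, all still higher in OSCC. With scan day as a further term, the tissue difference is estimated from rats 4 and 9 alone, the only rats with both pieces scanned on 1 day. In that setting 0 genes were called (lowest limma adjusted p = 0.0855), although the 5 differences were between 1.45 and 3.64. All 5 had an unadjusted p below 0.05 and at least 2-fold, as did 6.33% of all probes in that direction. At that p, 2 genes at the floor (Cd80 and Pdcd1lg2) were lower by at least 2-fold. Over all probes 0% were then called higher.

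**Figure D5:**
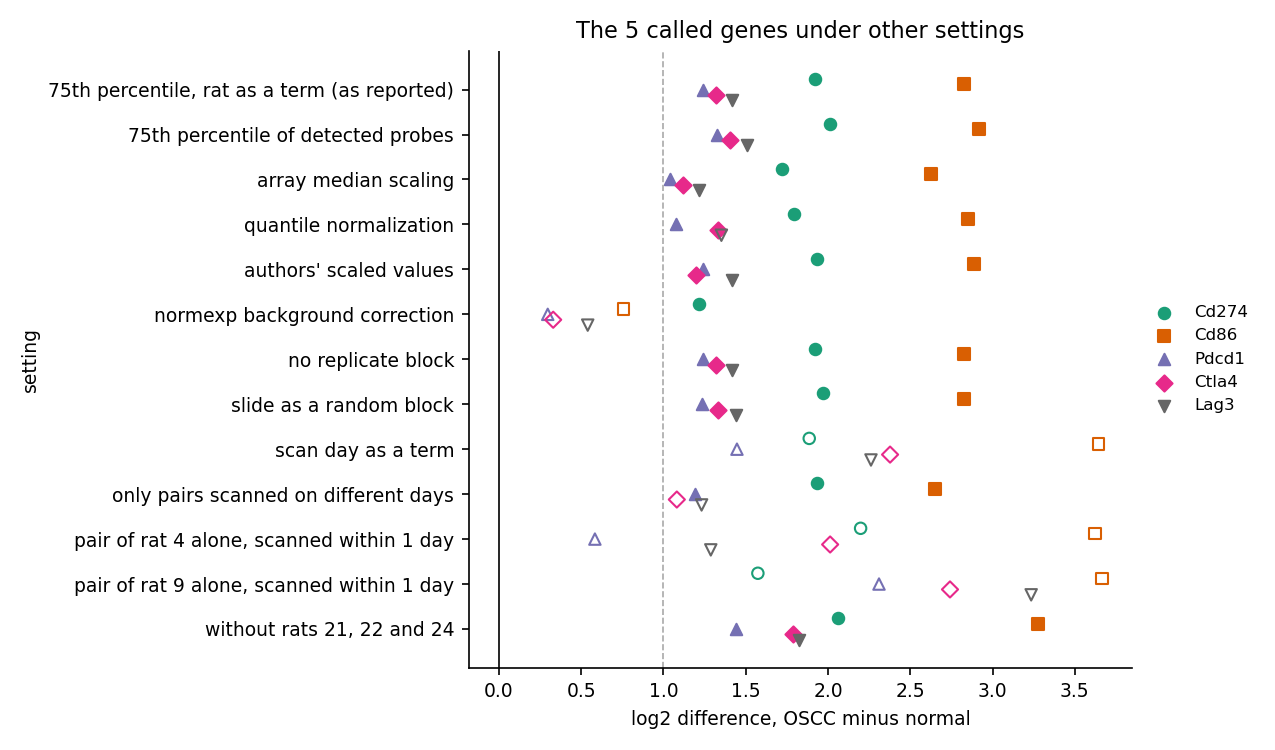
Log2 difference between OSCC and normal tissue (horizontal axis) of the 5 called genes under each setting (rows). Filled symbols have an adjusted p below 0.05, open ones do not or, for single rats, have no test, and the dashed line marks 2-fold. All points lie above 0, and normexp correction brings 4 genes below the dashed line while Cd274 stays at 1.22.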

How the data were processed

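RNA of 11 OSCC and 11 adjacent normal pieces was hybridized to one-color Agilent rat arrays. Intensity values were deposited as the authors' Feature Extraction 9.5.3.1 output, background-subtracted and detrended but unscaled. A second deposited table holds the authors' scaled scores (signal over the array's 75th percentile, linear, with a lowest value of 0.01), which served as an alternative.

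Control spots and 9196 outlier spots (0.975%) were left out, spots of a probe were averaged on the log2 scale, and values were set relative to the 75th percentile of their array. OSCC and normal tissue were compared in limma 3.58.1 (R 4.3.3) in a model of rat and tissue, because 1 animal gave both pieces. The deviations of its pieces from their tissue means correlated between -0.21 and 0.24 (median -0.02). Benjamini-Hochberg adjustment covered 30367 probes. The methods' t-test, 2-fold limit and p threshold were also applied. The fit was run on simulated data only to check that it recovers large planted changes. The simulation held no slide, scan day or background floor effects, so it does not bear on the calls of dim genes. For arrays, their number limits the precision.

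Of 131 listed genes 127 were found, 10 by an older symbol or accession. From each list, up to 4 called genes with the largest differences are named, with those not found and the defining markers, and further genes were chosen after their values were seen. The 10 genes, the lists and the tests were chosen with earlier results of these data known. The closing section gives the alternatives: other scalings, background correction, a filter on dim probes, scan day, slide and the omission of rats.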

Additional observations from a re-analysis of the deposited data

How the results depend on the processing

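The 5 calls numbered 4 to 6 under the other scalings, the authors' values, the methods' t-test, slide as a random block and the omission of rats 21, 22 and 24, but 1 with normexp correction, 2 when probes had to be above background on at least 11 arrays (8 genes were then not tested), 3 in the 9 pairs scanned on different days, and 0 with scan day as a term. The setting with scan day as a term rests on the pairs of rats 4 and 9 alone. Leaving out each rat gave 4 to 5 calls higher and 0 lower. For the further pathway genes, 15 calls became 2 with normexp and 0 with scan day, and for the markers 30 higher and 4 lower became 0 and 0 with scan day. Without the replicate block (tissue only) the calls were 5 for the genes and 16 for the pathway genes, and the pairing changed no other call among the 10 genes (Cd86 log2 difference 2.83 in both fits). Quantile normalization removed the Lag3 call (limma adjusted p = 0.0592), and the median of all probes moved from -0.24 to -0.03, and to -0.44 with median scaling. The cause of these changes was not tested.

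Directions turned for genes near 0. With normexp Pdcd1lg2 was 0.0077 and Cd80 0.0011, and with quantile normalization Ido1 was 0.107. In rat 4 alone Foxp3 was -1.28, with both pieces below background. Differences of changes that passed numbered 5 to 7 with each rat left out and 0 with normexp, where Cd86 minus Cd68 was -0.998 (lowest adjusted exact p = 0.0513). With each rat left out, Pdcd1 minus Ctla4 ran from -0.23 to 0.057 and Cd274 minus Cd68 from -0.23 to 0.048. Correlations that passed numbered 0 with each rat left out and 2 with normexp. Those were Cd80 and Cd86 and Ctla4 and Foxp3, each with r = 0.938 (adjusted permutation p = 0.0003 and 0.000975), and r was -0.053 for Pdcd1 and Lag3. Cd80 was above background on 0 arrays, and Cd86, Ctla4 and Foxp3 in 0 normal pieces. The 2 correlations that passed are thus not correlations of measured changes. With quantile normalization r was 0.357 for Cd80 and Cd86, 0.053 for Cd274 and Ido1, and 0.255 for Cd274 and Pdcd1lg2. With each rat left out r ran from -0.16 to 0.24 for Ctla4 and Foxp3, -0.60 to 0.26 for Cd80 and Cd86, and -0.52 to 0.041 for Cd274 and Pdcd1lg2; without rat 22 fewer than 6 rats were left for Cd80 and Cd86, which gave no value.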

Other observations

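Other leukocyte genes also differed between the tissues. Of 5 B and plasma cell markers on the array 3 rose, Mzb1, a chaperone of antibody-secreting cells, by a log2 difference of 5.66 ± 0.54 (SE, n = 11, at least 11.9-fold), Jchain, the joining chain of secreted antibodies, by 3.94 ± 0.47 (at least 4.55-fold), and Cd79b, a chain of the B cell receptor, by 2.45 ± 0.23 (at least 1.62-fold). All 5 were above background in 0 normal pieces, and Cd79a was not found on the array. Of 6 neutrophil markers 4 rose, including S100a9 by 4.78 ± 0.75 and S100a8 by 4.51 ± 0.79, whereas Mpo was above background on 0 arrays. S100a8 was higher in 9 rats and lower in 1. Both S100 genes were above background in all 11 normal pieces, and which cells carried them was not tested. Of 6 keratinocyte markers 1 rose, Dsg3 by 1.07 ± 0.39, and 1 fell, Krt15, by a log2 difference of -2.54 ± 0.23 in 11 of 11 rats.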
